A study of Mus musculus with 18 samples.

Results

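The genes described here encode the phagocyte NADPH oxidase and the proteins that work directly with it: Cybb, Cyba, Ncf1, Ncf4, Rac1, Rac2 and Hvcn1. They were chosen by name, and all 7 were found among the 53379 gene IDs of the deposited count table. All 7 passed the filter on low counts, which left 11569 genes for testing. Their counts in a single library ran from 624 for Hvcn1 to 59504 for Ncf1.

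The oxidase moves electrons from cytosolic NADPH across the membrane to oxygen and so makes superoxide, the first product of the respiratory burst. Cybb encodes gp91phox, the catalytic chain, and Cyba encodes p22phox, its membrane partner; together they form flavocytochrome b558. In a resting neutrophil the cytosolic subunits, among them p47phox (Ncf1) and p40phox (Ncf4), lie apart from the membrane, and assembly needs phosphorylation of p47phox and a Rac GTPase in its GTP-bound form. Hvcn1 encodes the voltage-gated proton channel that lets protons follow the electrons. Inherited loss of gp91phox, p22phox or p47phox causes chronic granulomatous disease, in which phagocytes fail to kill many microbes.

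RNA was sequenced from neutrophils sorted by FACS from bone marrow of mice aged 10 weeks, in 6 groups of 3 libraries: mice labelled CIS-/- and wild-type (WT) mice, each unstimulated, after 4 h and after 24 h in medium with 100 ng/mL GM-CSF. CIS-/- denotes a knockout of Cish, which encodes CIS, an inhibitor of cytokine signalling, and GM-CSF is a growth factor that activates neutrophils. Unstimulated cells were lysed straight after the sort. Culture always came with GM-CSF, so effects of culture time and of GM-CSF cannot be told apart. The treatment protocol in the labels gives 42 h where titles and extraction protocol give 24 h, which is used here. Neither the deleted stretch of Cish nor the origin of the replicates (separate mice or not) is labelled, and p-values therefore measure only how these libraries vary.

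Total counts ran from 12170524 to 22539858 per library. Cish was counted at 18.3, 19.98 and 17.9 CPM (counts scaled to a common library total) in unstimulated libraries labelled CIS-/- and at 6.48, 6.52 and 6.50 CPM in unstimulated WT libraries, which goes against the label, so "labelled CIS-/-" is kept throughout. At 24 h it stood at 238, 243 and 233 CPM in libraries labelled CIS-/- and at 1069, 1056 and 1056 CPM in WT libraries. All 12 neutrophil markers were above 1 CPM on average in every group. Replicate 1 labelled CIS-/- at 24 h stood apart: its counts differed from those of replicates 2 and 3 by a chi-square per degree of freedom of 7.50 and 9.32, and the other 16 replicate pairs gave 1.29 to 3.06.

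Coordinates are those of mm10 (GRCm38) with GENCODE mouse release M21 as annotation. Cybb (ENSMUSG00000015340.10) lies on the minus strand of chromosome X from 9435252 to 9487771, and Cyba (ENSMUSG00000006519.11) on the minus strand of chromosome 8 from 122424776 to 122432930. Chromosome 5 holds 3 members: Ncf1 (ENSMUSG00000015950.13, minus strand, 134220053 to 134229625), Rac1 (ENSMUSG00000001847.14, minus strand, 143503634 to 143528036) and Hvcn1 (ENSMUSG00000064267.13, plus strand, 122206804 to 122242297). Ncf4 (ENSMUSG00000071715.11, plus strand, 78244801 to 78262580) and Rac2 (ENSMUSG00000033220.6, minus strand, 78559167 to 78572783) are 296586 bases apart on chromosome 15. None of the members lies on chromosome 9 with Cish.

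Of the 7 members, 3 have an entry in the RefSeq promoter table of GRCm38.p6: Cybb, Cyba and Ncf1. The stretches before their starts are set side by side, and any link to the changes in level was not tested. In that table the start of Cybb lies inside the GENCODE span given above. Each line gives the 250 bases before the start, 5′ to 3′ on the gene's own strand, at chrX:9469325-9469574, chr8:122432941-122433190 and chr5:134229626-134229875, all on the minus strand. Capitals mark matches, on either strand, to GAAA followed after any 2 bases by GAAA, the core of interferon response elements, or to TTCNNNGAA, the core of STAT sites.
Cybb: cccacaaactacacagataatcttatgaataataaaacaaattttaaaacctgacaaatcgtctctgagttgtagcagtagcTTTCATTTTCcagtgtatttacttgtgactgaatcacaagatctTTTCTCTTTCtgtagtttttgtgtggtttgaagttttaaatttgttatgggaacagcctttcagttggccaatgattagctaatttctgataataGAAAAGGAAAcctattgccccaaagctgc
Cyba: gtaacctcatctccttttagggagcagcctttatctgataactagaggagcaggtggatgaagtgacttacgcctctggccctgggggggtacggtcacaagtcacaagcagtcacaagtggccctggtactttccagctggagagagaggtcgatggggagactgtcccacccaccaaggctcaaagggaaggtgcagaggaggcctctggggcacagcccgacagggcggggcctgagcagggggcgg
Ncf1: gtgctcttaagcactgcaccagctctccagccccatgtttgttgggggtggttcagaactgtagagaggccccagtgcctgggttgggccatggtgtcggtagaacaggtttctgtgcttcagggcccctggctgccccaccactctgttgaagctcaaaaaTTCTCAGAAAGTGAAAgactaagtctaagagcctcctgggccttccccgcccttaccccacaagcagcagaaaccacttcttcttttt

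The search covered both strands from 250 bases before to 50 bases after the start. The Cybb window held the interferon response core at 3 places, which begin 168, 124 and 29 bases before the start, and the Ncf1 window held it once, overlapping a TTCNNNGAA. In all 32851 windows of the table, 3.4% held the interferon response core and 8.3% held TTCNNNGAA. GAGGAA, the core bound by the ETS factor PU.1, was found once in the Cybb window, 10 to 15 bases after the start and so outside the stretch shown, and is in 28.3% of windows. TTGCNNAA, a C/EBP core found in 10.8% of windows, was in none of the 3, and the Cyba window held none of the 4 motifs. The Cybb window was 35.3% G and C, the Cyba window 60.7% and the Ncf1 window 54.0%, beside a median of 52.7% over all windows. A match is a description of these letters and no evidence of binding.

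Levels below are CPM scaled with TMM factors, a correction for library composition. Fold changes are log2 values from edgeR's quasi-likelihood test, with p adjusted by Benjamini-Hochberg over the 11569 genes and called under 0.05. They are relative to the bulk of genes in the libraries compared. The SE given with a fold change was derived from that test, as the absolute log2 value divided by the square root of the F statistic.

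**Figure D1:**
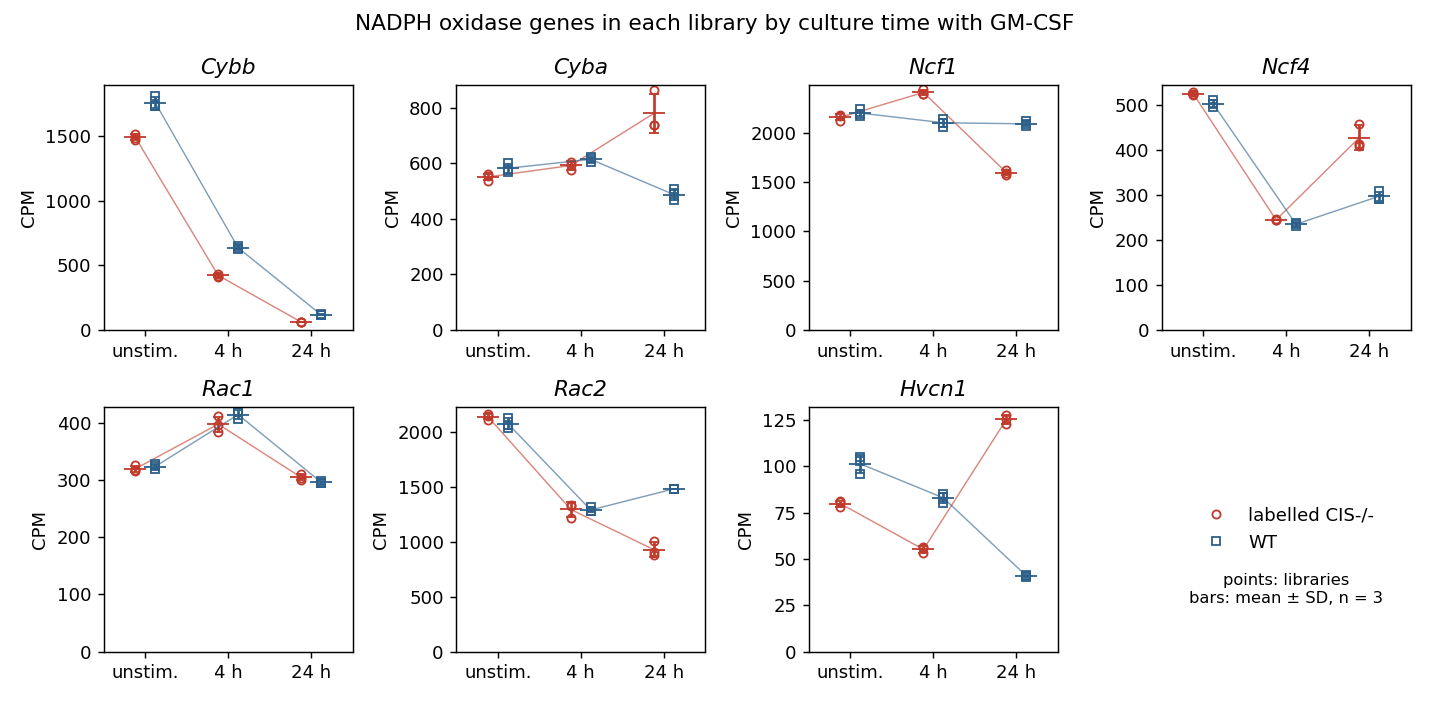
Level of each of the 7 genes in CPM (vertical axes from 0) in the 3 libraries of each group, unstimulated and after 4 h and 24 h with GM-CSF; red circles are libraries labelled CIS-/-, blue squares WT, bars the mean ± SD (n = 3). Cybb sinks to 60.8 CPM labelled CIS-/- and 117 CPM in WT at 24 h, and Hvcn1, Cyba and Ncf4 stand higher and Rac2, Ncf1 and Cybb lower in libraries labelled CIS-/- than in WT libraries at that time, Ncf4 not when libraries are scaled by their totals.

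Cybb, the catalytic chain, lost most of its transcript in culture. Libraries labelled CIS-/- gave 1514, 1469 and 1488 CPM before culture, 420.0, 434 and 411 CPM after 4 h, and 59.8, 60.0 and 62.5 CPM after 24 h. The WT replicates gave 1807, 1734 and 1733 CPM before culture, 631, 650.4 and 624 CPM after 4 h, and 114, 122 and 115 CPM after 24 h. The 6 groups did not overlap, and WT was above the libraries labelled CIS-/- at each time. Against the unstimulated state, the log2 fold change at 24 h was -4.61 ± 0.04 in libraries labelled CIS-/-, a fall of 24.5-fold (adjusted p = 3.76e-67), and -3.91 ± 0.04 in WT libraries, a fall of 14.99-fold (adjusted p = 3.56e-65). Most of the change in count came before 4 h, with log2 fold changes of -1.82 ± 0.03 labelled CIS-/- (adjusted p = 1.2e-49) and, in WT, -1.47 ± 0.03 (adjusted p = 3.78e-45). On the log2 scale the interval from 4 h to 24 h held the larger share, at -2.79 ± 0.04 labelled CIS-/- and -2.44 ± 0.03 in WT. In bulk RNA, fewer cells of a type and less RNA per cell cannot be told apart.

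The difference in Cybb between genotypes was called at all 3 times. Libraries labelled CIS-/- against WT gave log2 fold changes of -0.24 ± 0.03 unstimulated (adjusted p = 8.97e-09), -0.59 ± 0.03 at 4 h (adjusted p = 1.88e-22) and -0.94 ± 0.04 at 24 h (adjusted p = 3.55e-30). The genotype-by-time terms, which test whether the change with culture differs between genotypes, were -0.35 ± 0.05 at 4 h (adjusted p = 8.22e-09), -0.71 ± 0.05 at 24 h (adjusted p = 4.9e-19) and -0.35 ± 0.05 from 4 h to 24 h (adjusted p = 2.25e-08).

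Cyba, whose product p22phox pairs with gp91phox in the membrane, did not follow Cybb. Its replicates labelled CIS-/- gave 554, 561 and 538 CPM before culture, 606, 593 and 577 CPM after 4 h, and 862, 739 and 737 CPM after 24 h. In WT the replicates gave 570.1, 599.8 and 576 CPM before culture, 606, 615 and 622 CPM after 4 h, and 507, 466 and 489 CPM after 24 h. On the TMM scale the 24 h libraries labelled CIS-/- were the highest of all 18 and the 24 h WT libraries the lowest, whereas scaling by totals put the 24 h WT libraries at 597 to 651 CPM, above all 4 h libraries. The log2 fold change at 24 h against unstimulated was 0.50 ± 0.04 labelled CIS-/- (adjusted p = 1.54e-14) and 0.43 without replicate 1, the highest of its group. In WT it was -0.26 ± 0.04 (adjusted p = 3.8e-07), and 0.05 (adjusted p = 0.201) when libraries were scaled by their totals alone, so the WT fall depends on the scaling. Changes at 4 h were small, 0.10 ± 0.04 labelled CIS-/- (adjusted p = 0.0202) and 0.08 ± 0.04 in WT (adjusted p = 0.0797), and scaling by totals gave -0.04 labelled CIS-/- and -0.10 in WT. The 4 h call in libraries labelled CIS-/- was lost without unstimulated replicate 1 (adjusted p = 0.0553), unstimulated replicate 3 (0.119) or 4 h replicate 1 (0.0749).

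Cyba did not pass the test between genotypes in unstimulated cells (-0.08 ± 0.04, adjusted p = 0.172) or at 4 h (-0.05 ± 0.04, adjusted p = 0.453). At 24 h it was higher in libraries labelled CIS-/- by 0.68 ± 0.04 (adjusted p = 1.32e-18), by 0.60 without replicate 1 and by 0.14 (adjusted p = 0.00086) with scaling by totals. The genotype-by-time term at 24 h was 0.76 ± 0.06 (adjusted p = 4.34e-15).

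A ratio of 2 genes inside a library does not depend on how libraries are scaled. Per kilobase of exon (RPKM), the ratio of Cybb to Cyba was 0.489, 0.469 and 0.495 in unstimulated libraries labelled CIS-/-, 0.124, 0.131 and 0.127 at 4 h and 0.0124, 0.0145 and 0.0152 at 24 h. In WT libraries it was 0.567, 0.517 and 0.538, then 0.186, 0.189 and 0.180, then 0.0404, 0.0468 and 0.0421. The ratio thus fell 34.6-fold in libraries labelled CIS-/- and 12.6-fold in WT libraries over 24 h, and was 3.07-fold lower in libraries labelled CIS-/- than in WT libraries at that time, with no overlap.

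**Figure D2:**
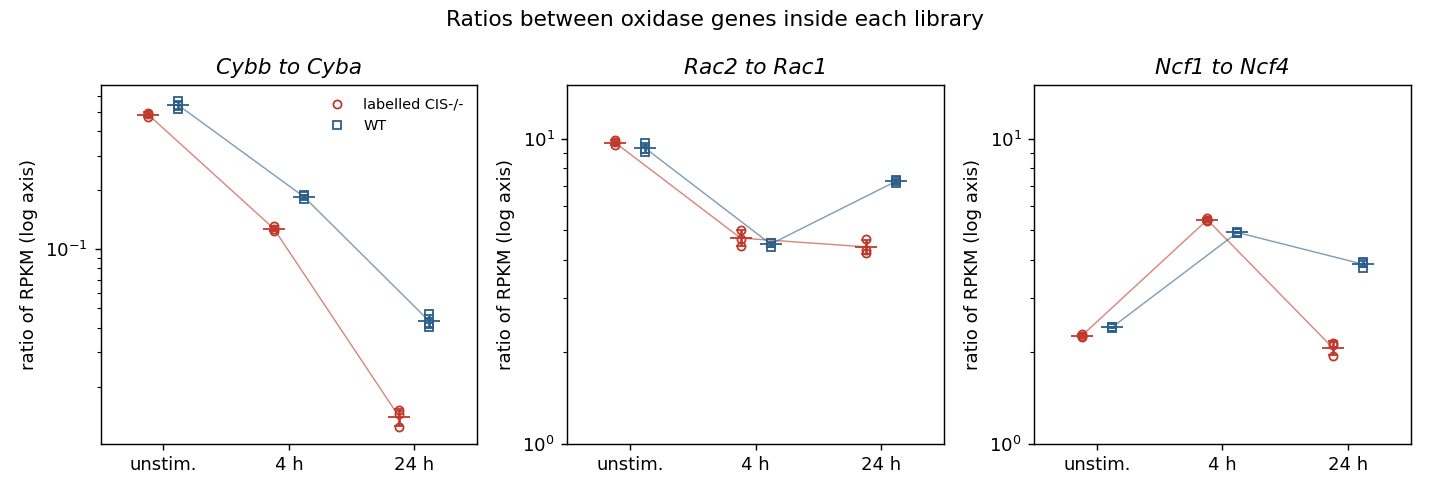
Ratios of RPKM between 2 oxidase genes inside each library (log axes) by culture time; red circles are libraries labelled CIS-/-, blue squares WT, bars the mean ± SD (n = 3). Cybb to Cyba falls in both genotypes, whereas Rac2 to Rac1 overlaps between genotypes until 4 h and stands at 4.42 labelled CIS-/- and 7.25 in WT at 24 h, and Ncf1 to Ncf4 differs most between genotypes at 24 h, at 2.06 labelled CIS-/- and 3.88 in WT.

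Ncf1 encodes p47phox, the organizer whose phosphorylation starts assembly, and its transcript stayed high. Its replicates labelled CIS-/- gave 2173, 2181 and 2119.7 CPM before culture, 2442, 2395 and 2389.7 CPM after 4 h, and 1620.1, 1576 and 1593 CPM after 24 h. WT replicates gave 2175, 2238 and 2186 CPM before culture, 2103, 2060.2 and 2140.4 CPM after 4 h, and 2117, 2069 and 2085 CPM after 24 h. The 3 libraries labelled CIS-/- at 24 h were the lowest of all 18, and those at 4 h the highest, a place that scaling by totals gave to the WT libraries at 24 h (2649.9 to 2719 CPM). Ncf1 in libraries labelled CIS-/- was up by 0.16 ± 0.03 at 4 h (adjusted p = 1.49e-06; 0.01 and adjusted p = 0.68 with scaling by totals) and changed by -0.43 ± 0.03 at 24 h (adjusted p = 3.23e-21), both log2 fold changes against unstimulated. In WT libraries the changes on the TMM scale were within a few percent, -0.07 ± 0.03 at 4 h (adjusted p = 0.0325) and -0.07 ± 0.03 at 24 h (adjusted p = 0.0169). Those WT calls did not hold under several alternatives: without a low-count filter the adjusted p was 0.208 at 4 h and 0.434 at 24 h. Scaling by totals gave a larger fall at 4 h, -0.24 (adjusted p = 1.06e-11), and a rise of 0.24 at 24 h (adjusted p = 2.17e-11). Between genotypes the log2 fold change was -0.03 ± 0.03 unstimulated (adjusted p = 0.553), 0.20 ± 0.03 at 4 h (adjusted p = 1.48e-07) and -0.39 ± 0.03 at 24 h (adjusted p = 5.61e-19).

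Leaving out single libraries also ended those 2 WT calls. At 4 h the adjusted p was 0.12 without unstimulated replicate 2, 0.0684 without 4 h replicate 1 and 0.156 without 4 h replicate 2. At 24 h it was 0.0818 without unstimulated replicate 2, 0.0641 without 24 h replicate 2 and 0.0607 without 24 h replicate 3. Ncf1 shares 408 exonic bases with Gtf2ird2 on the opposite strand, whose counts came to 0.107% of those of Ncf1.

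Ncf4 encodes p40phox, which binds the phosphoinositide of phagosome membranes, and its level dipped at 4 h. Its replicates labelled CIS-/- gave 531, 525 and 524 CPM before culture, 245, 245 and 246 CPM after 4 h, and 459.5, 414 and 409.8 CPM after 24 h. In WT cells the values were 497, 511 and 504 CPM before culture, 236, 232 and 238 CPM after 4 h, and 309.7, 291 and 292 CPM after 24 h. At 4 h the level was 2.15-fold lower labelled CIS-/- and 2.14-fold lower in WT than before culture, and at 24 h it lay between the other times in both. The 4 h log2 fold change was -1.10 ± 0.04 labelled CIS-/- (adjusted p = 5.71e-36) and -1.10 ± 0.04 in WT (adjusted p = 7.6e-36), with a genotype-by-time term of -0.00 ± 0.05 (adjusted p = 0.987), whose sign changed between alternatives. From 4 h to 24 h Ncf4 rose by 0.80 ± 0.04 labelled CIS-/- (adjusted p = 1.07e-28) and by 0.34 ± 0.04 in WT (adjusted p = 1.41e-12), or by 0.83 in WT with scaling by totals. At 24 h it was higher in libraries labelled CIS-/- than in WT libraries by 0.52 ± 0.04 (adjusted p = 1.34e-20) and by 0.47 without replicate 1, but scaling by totals gave -0.01 (adjusted p = 0.786).

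The ratio of Ncf1 to Ncf4 in RPKM was 2.26 ± 0.03 unstimulated, 5.42 ± 0.08 at 4 h and 2.06 ± 0.10 at 24 h in libraries labelled CIS-/- (mean ± SD, n = 3 each). In WT libraries it was 2.41 ± 0.01, 4.92 ± 0.03 and 3.88 ± 0.09. Libraries labelled CIS-/- and WT libraries did not overlap at any time: the ratio was 1.06-fold lower labelled CIS-/- unstimulated, 1.10-fold higher at 4 h and 1.88-fold lower at 24 h.

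Rac2, the Rac GTPase largely restricted to blood cells and the main one of the neutrophil oxidase, was the most abundant member per kilobase in unstimulated cells. Its replicates labelled CIS-/- gave 2164, 2146 and 2114 CPM before culture, 1336, 1329 and 1221 CPM after 4 h, and 1006, 906 and 878 CPM after 24 h. The WT values were 2042, 2133 and 2061 CPM before culture, 1279, 1279 and 1315 CPM after 4 h, and 1485, 1484 and 1479.8 CPM after 24 h. Both genotypes were lower at 4 h, and afterwards they parted: all 3 WT libraries were higher at 24 h than at 4 h, and all 3 labelled CIS-/- were lower. The log2 fold change from 4 h to 24 h was -0.48 ± 0.04 labelled CIS-/- (adjusted p = 6.38e-18) and 0.20 ± 0.03 in WT (adjusted p = 1.05e-06), or 0.69 in WT with scaling by totals. The genotype-by-time term over that interval was -0.68 ± 0.05 (adjusted p = 7.21e-18), and the genotype difference at 24 h was -0.67 ± 0.04 (adjusted p = 3.61e-24), with -0.73 without replicate 1. Unstimulated and at 4 h the difference did not pass the test (0.04 ± 0.03, adjusted p = 0.428, and 0.01 ± 0.04, adjusted p = 0.946, of which the second took a negative sign with scaling by totals).

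Rac1, the ubiquitous relative of Rac2, moved least of the members on the TMM scale. With scaling by totals Cyba moved less, with group means from 539 to 692 CPM, where those of Rac1 ran from 271 to 381 CPM. Rac1 replicates labelled CIS-/- gave 318, 326 and 315 CPM before culture, 385, 412 and 397 CPM after 4 h, and 311, 303 and 301 CPM after 24 h. Those of WT cells were 328, 319 and 324 CPM before culture, 406, 419 and 419 CPM after 4 h, and 295, 295 and 299 CPM after 24 h. In both genotypes the 4 h libraries were above all others, although in WT scaling by totals put the 24 h libraries at the same level, with 381 ± 4.1 CPM at 24 h and 380.3 ± 6.1 CPM at 4 h. The rise at 4 h was 0.32 ± 0.03 on the log2 scale labelled CIS-/- (adjusted p = 7.46e-13) and 0.36 ± 0.03 in WT (adjusted p = 8.72e-15), or 0.17 labelled CIS-/- and 0.18 in WT with scaling by totals. At 24 h against unstimulated the values were -0.07 ± 0.03 labelled CIS-/- (adjusted p = 0.0522) and -0.13 ± 0.03 in WT (adjusted p = 0.000457), where scaling by totals gave 0.18 (adjusted p = 1.32e-06) in WT and -0.25 (adjusted p = 7.72e-10) labelled CIS-/-. The CIS-/- value was past the threshold without unstimulated replicate 1 (adjusted p = 0.0353), unstimulated replicate 3 (0.0244) or 24 h replicate 1 (0.0231).

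Between genotypes Rac1 did not pass the edgeR test at any time, but DESeq2 called all 7 members at 24 h, 4 higher and 3 lower, with Rac1 higher. In edgeR the log2 fold change of Rac1 at 24 h was 0.04 ± 0.03 (adjusted p = 0.272), and -0.49 (adjusted p = 2.23e-20) with scaling by totals. Rac1 shares 2309 exonic bases with Daglb on the opposite strand, whose counts came to 6.08% of those of Rac1. How the counting treated strand is unknown here, so reads of overlapping genes cannot be told apart, and counts of both were summed as an alternative chosen after seeing the data. With Daglb added, the 24 h genotype difference of Rac1 was -0.05 (adjusted p = 0.175). Against unstimulated, the sum gave -0.20 at 24 h labelled CIS-/- (adjusted p = 3.53e-07), a call that Rac1 alone did not reach. In WT it gave -0.17 at 24 h (adjusted p = 3.23e-06). The rises at 4 h were then 0.21 labelled CIS-/- and 0.26 in WT, both still called.

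The ratio of Rac2 to Rac1 in RPKM was 9.87, 9.53 and 9.72 in unstimulated libraries labelled CIS-/-, 5.03, 4.68 and 4.46 at 4 h and 4.69, 4.32 and 4.23 at 24 h. In WT libraries it was 9.01, 9.69 and 9.22, then 4.57, 4.43 and 4.54, then 7.29, 7.29 and 7.17. The ratio fell about as far in both genotypes by 4 h, by 2.06-fold each. At 24 h it was 1.64-fold lower in libraries labelled CIS-/- than in WT libraries.

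Hvcn1, the proton channel, was the member whose direction differed most between genotypes. Its replicates labelled CIS-/- gave 81.2, 80.5 and 77.9 CPM before culture, 56.1, 56.4 and 53.1 CPM after 4 h, and 128, 126 and 123 CPM after 24 h. WT cells gave 96.1, 103 and 105 CPM before culture, 83.7, 80.2 and 85.2 CPM after 4 h, and 41.5, 40.7 and 40.5 CPM after 24 h. Libraries labelled CIS-/- were below WT unstimulated and at 4 h, and above WT at 24 h, with no overlap at any of the 3 times. Between genotypes the log2 fold change was -0.34 ± 0.04 unstimulated (adjusted p = 3.49e-09), -0.59 ± 0.05 at 4 h (adjusted p = 3.91e-15) and 1.62 ± 0.04 at 24 h, 3.06-fold (adjusted p = 8.8e-40). From 4 h to 24 h Hvcn1 rose by 1.18 ± 0.05 labelled CIS-/- (adjusted p = 7.51e-32) and changed by -1.02 ± 0.05 in WT (adjusted p = 3.1e-28), a genotype-by-time term of 2.20 ± 0.07 (adjusted p = 1.46e-37).

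The size of these Hvcn1 values may depend on an overlap, since how the counting treated strand is unknown. Hvcn1 shares 1574 exonic bases with Tctn1 on the opposite strand, whose counts over all libraries came to 28.8% of those of Hvcn1. Tctn1 was counted at 3.17 ± 0.24 CPM labelled CIS-/- and at 37.1 ± 1.3 CPM in WT at 24 h, the opposite order to Hvcn1. With the counts of both genes summed, the levels at 24 h were 129 ± 2.2 CPM labelled CIS-/- and 78.0 ± 1.8 CPM in WT, and the log2 fold change was 0.72 (adjusted p = 3.75e-24). Summing gave 0.25 for 24 h against unstimulated labelled CIS-/- (adjusted p = 2.12e-07) in place of 0.65 ± 0.04 (adjusted p = 6.14e-21), and -0.75 in WT (adjusted p = 2.71e-25) in place of -1.31 ± 0.05 (adjusted p = 6.72e-35). From 4 h to 24 h summing gave 0.91 labelled CIS-/- (adjusted p = 2.11e-27) and -0.27 in WT (adjusted p = 7.73e-08). The genotype-by-time term from 4 h to 24 h became 1.18 (adjusted p = 1.12e-25), and that at 24 h 0.996 (adjusted p = 1.62e-23). The directions and calls of Hvcn1 were the same in all 12 comparisons after summing. The sum adds all Tctn1 counts, from the shared stretch or not, so it cannot show how many reads were credited to the wrong gene.

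**Figure D3:**
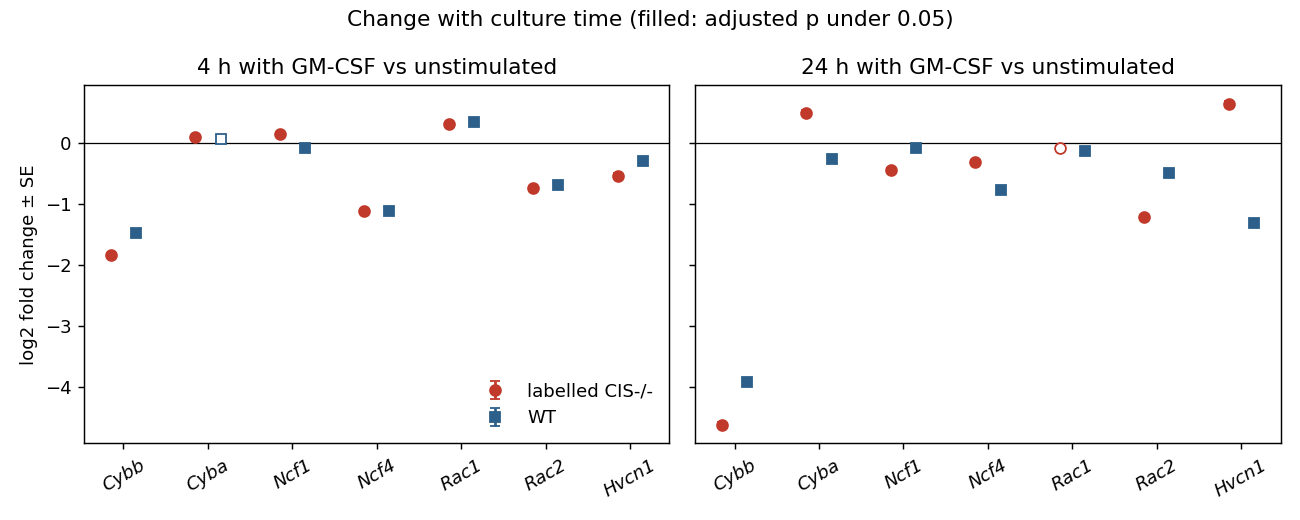
Log2 fold change ± SE (vertical axis) of the 7 genes at 4 h and at 24 h against unstimulated cells; red circles are libraries labelled CIS-/-, blue squares WT, and filled points have an edgeR adjusted p under 0.05. Cybb lies lowest in both panels, and at 24 h Cyba and Hvcn1 lie above 0 labelled CIS-/- and below 0 in WT, where scaling by library totals puts WT Cyba, Ncf1 and Rac1 above 0.

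Counted together against the unstimulated state, 3 of the 7 genes were called higher and 4 lower at 4 h in libraries labelled CIS-/-, where 77% of all genes tested were called, and 1 higher and 5 lower in WT, where 76.3% were called. With scaling by totals the 4 h splits were 1 higher and 4 lower labelled CIS-/-, and 1 higher and 6 lower in WT. At 24 h 2 were called higher and 4 lower in libraries labelled CIS-/- (84.1% of all genes called). That split was 2 higher and 5 lower with scaling by totals and with limma-voom. In WT at 24 h all 7 were called lower (78.4% of all genes called, 37.7% lower), a split that with scaling by totals was 2 higher and 4 lower. Without a low-count filter it was 0 higher and 5 lower. From 4 h to 24 h 3 were higher and 4 lower labelled CIS-/- (75.7% of all genes called), and 2 were higher and 4 lower in WT (75.3% called), where scaling by totals gave 4 higher and 2 lower. A share of calls near that of all genes is no result about these 7. The median log2 fold change of the 7 at 24 h was -0.30 labelled CIS-/- and -0.49 in WT, beside -0.01 labelled CIS-/- and 0.05 in WT over all genes tested.

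**Figure D4:**
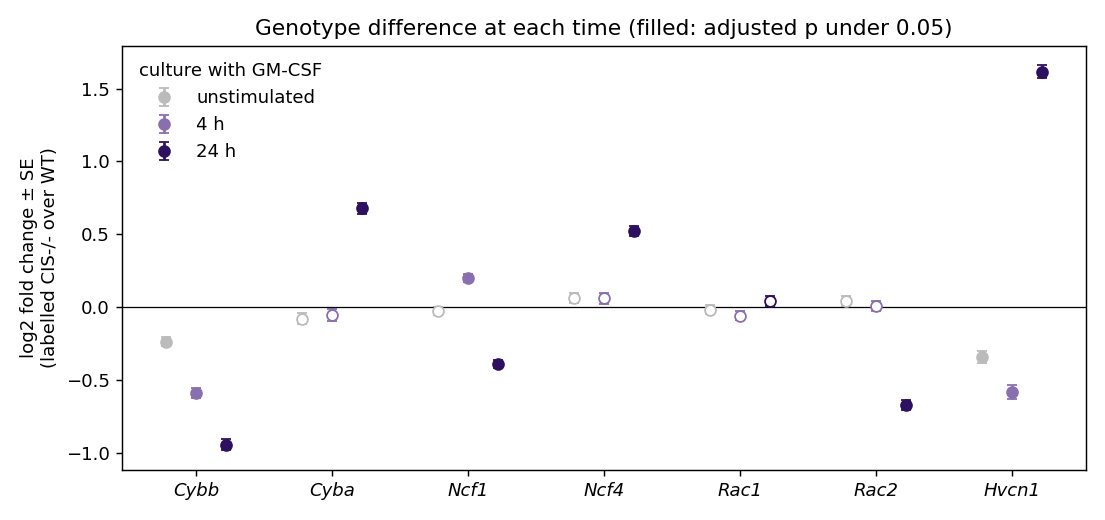
Log2 fold change ± SE of the 7 genes in libraries labelled CIS-/- over WT, unstimulated (grey), at 4 h (light purple) and at 24 h (dark purple); filled points have an edgeR adjusted p under 0.05. At 24 h Hvcn1 lies at 1.62 and Cybb at -0.94, and Ncf4 and Rac1 at 0.52 and 0.04, both of which scaling by library totals puts below 0.

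Between genotypes, 2 of the 7 genes, Cybb and Hvcn1, were called in unstimulated cells, both lower in libraries labelled CIS-/- (22.3% of all genes called, 9.41% lower). A fit of the compared groups alone called 4, with Cyba lower and Ncf4 higher. At 4 h Ncf1 was higher and Cybb and Hvcn1 lower (17.3% called). At 24 h Hvcn1, Cyba and Ncf4 were higher and Cybb, Rac2 and Ncf1 lower (76.3% called), Ncf4 not with scaling by totals. Rac1 did not pass the test in edgeR but was called higher by DESeq2. The genotype-by-time terms called 1 higher and 2 lower at 4 h (15.7% of all genes), 3 higher and 3 lower at 24 h (64.7%), and 3 higher and 3 lower from 4 h to 24 h (66%).

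Part of these splits changed with the scaling. The WT 24 h libraries had TMM factors of 1.28 to 1.29, and the other libraries 0.884 to 1.04. Scaling by totals moved the median log2 fold change of all genes to -0.55 for genotype at 24 h, 0.36 for WT at 24 h against unstimulated, 0.45 for WT from 4 h to 24 h, and -0.51 and -0.53 for the 24 h and the 4 h to 24 h genotype-by-time terms. It moved it to -0.20 for libraries labelled CIS-/- at 24 h, and at 4 h to -0.17 in those and -0.19 in WT libraries, all against unstimulated. Of the calls over all genes for genotype at 24 h, 26.8% were then higher in place of 50%. For WT the share of higher calls was 66.8% in place of 51.9% at 24 h against unstimulated and 73% in place of 47.4% from 4 h to 24 h. It was 41.3% in place of 57.8% for genotype in unstimulated cells, 24.7% in place of 48.8% for the 24 h genotype-by-time term and 26.7% in place of 51.4% for the term from 4 h to 24 h. For the 7 genes, the 24 h genotype split became 2 higher and 4 lower, with Cyba and Hvcn1 higher under both scalings and Cybb, Rac2 and Ncf1 lower under both. The 24 h genotype differences themselves became -1.48 for Cybb, -0.92 for Ncf1, -1.21 for Rac2 and 1.08 for Hvcn1. Both 24 h genotype-by-time splits also became 2 higher and 4 lower, with terms at 24 h of -1.20 for Cybb, 0.26 for Cyba, -0.85 for Ncf1, -1.21 for Rac2 and 1.47 for Hvcn1.

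**Figure D5:**
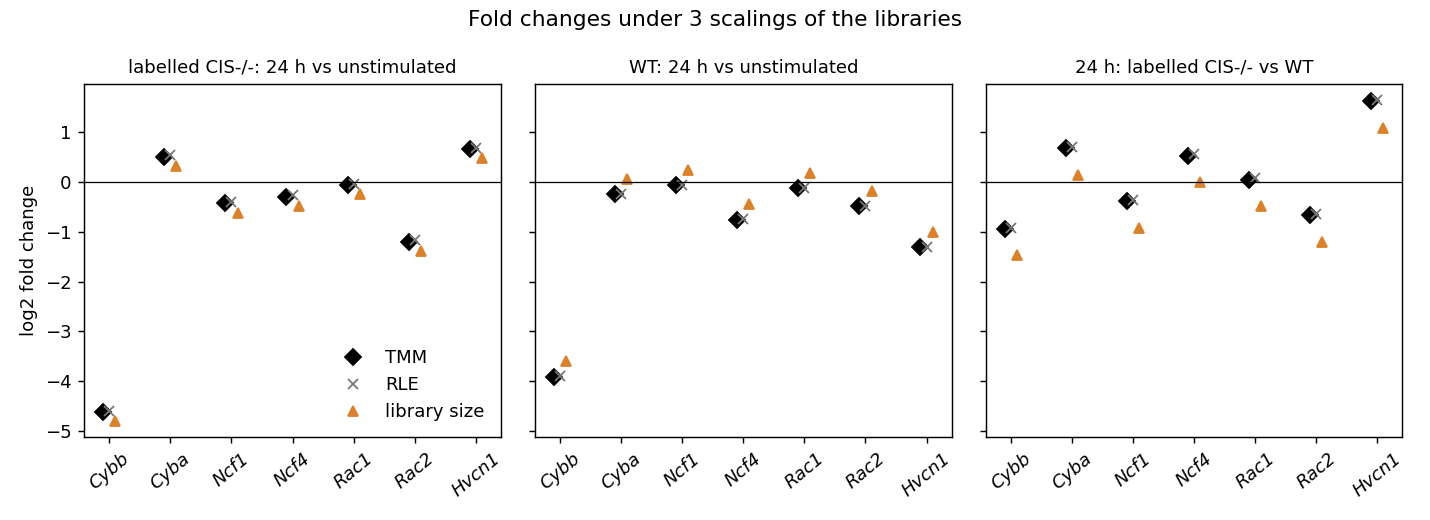
Log2 fold change of the 7 genes under TMM factors (black diamonds), RLE factors (grey crosses) and library totals alone (orange triangles) in 3 comparisons named above the panels. TMM and RLE points lie close together, and totals shift all 7 genes one way, which puts WT Cyba, Ncf1 and Rac1 above 0 at 24 h and Ncf4 and Rac1 below 0 in the genotype comparison.

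Per kilobase the order of the genes changed with time. In unstimulated WT libraries Rac2 led with 669.9 RPKM, followed by Ncf1 with 601, Cyba with 560.1, Cybb with 303, Ncf4 with 249.6, Rac1 with 72.0 and Hvcn1 with 28.5 RPKM. The order was the same labelled CIS-/- except that Ncf4 and Cybb overlapped, at 261 and 257 RPKM. At 24 h libraries labelled CIS-/- had Cyba first with 750.2 RPKM and Cybb last with 10.5 RPKM, below Hvcn1 with 35.2 RPKM. WT libraries at 24 h had Ncf1 first with 571 RPKM, Rac2 and Cyba overlapping at 478 and 469 RPKM, Cybb at 20.2 and Hvcn1 last with 11.5 RPKM. At 4 h Ncf1 led labelled CIS-/- with 658 RPKM, and in WT Cyba and Ncf1 overlapped at 591 and 574 RPKM.

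Of the summed RPKM of the 7 genes, Cybb made up 10.6% unstimulated, 3.74% at 4 h and 0.579% at 24 h in libraries labelled CIS-/-, and 12.2%, 5.69% and 1.14% in WT libraries. Cyba made up 41.4 ± 1.2% labelled CIS-/- and 26.6 ± 0.7% in WT at 24 h (SD, n = 3 each). The sum itself at 24 h was 1811 ± 111 RPKM labelled CIS-/- and 1763 ± 30 RPKM in WT. On this scale the sums differed by less than the spread between replicates, but with scaling by totals they were 1607 ± 92 RPKM labelled CIS-/- and 2264 ± 42 RPKM in WT, 1.41-fold lower labelled CIS-/-, so their near equality depends on the scaling. The shares within a library do not.

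Likeness of pattern was measured as the root mean square difference of centred log2 group means over the 6 groups, among 5968 genes of at least 10 CPM. Cybb was closest to Depdc1b (0.169), Lrrk2 (0.171) and Ifitm6 (0.204), and 4 genes lay within 0.25 of it. Depdc1b was near the floor at 24 h, at 0.719 CPM labelled CIS-/- and 2.07 CPM in WT, where the prior count of 2 weighs on its log2 values. Lrrk2, a large kinase, stood at 24.1 CPM labelled CIS-/- and 49.0 CPM in WT at 24 h, against 651 CPM labelled CIS-/- and 630.4 CPM in WT unstimulated. Hvcn1 was closest to Pik3cb (0.153), a catalytic chain of phosphoinositide 3-kinase, Ptpn7 (0.170) and Gng12 (0.224), with 6 genes within 0.25. Pik3cb stood at 119 CPM labelled CIS-/- and 42.0 CPM in WT at 24 h.

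The other members had more genes within 0.25, but such counts also depend on how far a gene moved and do not show how common its pattern is. The log2 group means spanned 4.85 for Cybb and 1.61 for Hvcn1. They spanned 1.21 for Rac2, 1.16 for Ncf4, 0.674 for Cyba, 0.594 for Ncf1 and 0.484 for Rac1. Within 0.25 of Cyba lay 832 genes, the nearest Cul3, Ubash3b and Lats2, and within 0.25 of Ncf1 lay 958, the nearest Ndufb9, Fam114a2 and Rnf215. Rac1 had 1010 such genes, nearest Setd3, Sike1 and Abraxas2, Rac2 had 430, nearest Sf3b2, Fgfr1op2 and Cuedc2, and Ncf4 had 86, nearest Mocs1, Ebi3 and Esyt2. Among the members, Ncf1 and Rac1 were the most alike (0.187), and Cybb lay 1.45 to 1.87 from each of the others.

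Genes that act around the oxidase were examined as lists. Of 23 tested genes of assembly and activation, such as kinases, Rac exchange factors and lipid enzymes, 12 were higher and 10 lower in libraries labelled CIS-/- than in WT libraries at 24 h (median log2 fold change 0.07, beside -0.02 over all genes, of which 76.3% were called and 38.2% called higher). Scaling by totals made that 2 higher and 21 lower (median -0.46). Of the same 23 genes, 9 were higher and 14 lower in WT at 24 h against unstimulated (median -0.47, beside 0.05 over all genes, of which 78.4% were called and 37.7% called lower), or 10 higher and 12 lower (median -0.16) with scaling by totals. Vav1, a Rac exchange factor, stood at 1078 ± 15 CPM labelled CIS-/- and 370 ± 9.4 CPM in WT at 24 h (log2 fold change 1.54 ± 0.03, adjusted p = 1.29e-46). Prex1, another Rac exchange factor, stood at 192 ± 19 CPM labelled CIS-/- and 529.9 ± 14 CPM in WT (-1.46 ± 0.04, adjusted p = 6.86e-35), and the kinase Mapk14 at 86.9 ± 1.6 CPM labelled CIS-/- and 269.5 ± 7.4 CPM in WT (-1.63 ± 0.04, adjusted p = 1.54e-44). Arhgdib, which holds Rac in the cytosol, fell in WT at 24 h against unstimulated by 1.91 ± 0.03 on the log2 scale (adjusted p = 1.13e-50).

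Of 10 tested genes of NADPH supply, the fuel of the oxidase, all 10 were called lower at 24 h against unstimulated in libraries labelled CIS-/- (median -1.35, beside -0.01 over all genes, of which 84.1% were called and 42% called lower) and all 10 in WT (median -0.88, beside 0.05 over all genes, of which 37.7% were called lower). With scaling by totals 10 were lower labelled CIS-/- (median -1.54) and 9 in WT (median -0.57). G6pdx, the first enzyme of the pentose phosphate pathway, stood at 224 ± 13 CPM labelled CIS-/- and 191 ± 7.0 CPM in WT at 24 h, against 679 ± 8.9 CPM labelled CIS-/- and 749 ± 12 CPM in WT unstimulated. H6pd, its relative in the endoplasmic reticulum, stood at 12.01 ± 0.45 CPM labelled CIS-/- and 60.1 ± 1.6 CPM in WT at 24 h (log2 fold change -2.31 ± 0.07, adjusted p = 4.16e-39). Between genotypes at 24 h, 4 of the 10 were higher and 6 lower (median -0.30, beside -0.02 over all genes, of which 76.3% were called), and with scaling by totals none was higher and 9 were lower (median -0.83).

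Of 13 genes that handle the oxidants, 10 were higher and 3 lower in libraries labelled CIS-/- than in WT libraries at 24 h (median 0.65, beside -0.02 over all genes, of which 76.3% were called and 38.2% called higher), or 7 higher and 5 lower (median 0.12) with scaling by totals. Txnrd1, thioredoxin reductase, stood at 1590.5 ± 45 CPM labelled CIS-/- and 198 ± 1.8 CPM in WT (log2 fold change 3.01 ± 0.03, adjusted p = 6.31e-60). Sod2, the mitochondrial superoxide dismutase, stood at 579 ± 35 CPM labelled CIS-/- and 96.1 ± 2.6 CPM in WT (2.59 ± 0.04, adjusted p = 1.96e-53), and Prdx1, a peroxiredoxin, at 242 ± 14 CPM labelled CIS-/- and 41.0 ± 2.5 CPM in WT (2.56 ± 0.05, adjusted p = 3.66e-42).

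Of 13 tested transcription factors reported at oxidase promoters, 7 were higher and 6 lower labelled CIS-/- than in WT at 24 h (median 0.13, beside -0.02 over all genes, of which 76.3% were called), or 3 higher and 9 lower (median -0.41) with scaling by totals. Of these 13, 3 were higher and 8 lower in WT at 24 h against unstimulated (median -0.43, beside 0.05 over all genes, of which 78.4% were called and 37.7% called lower), or 5 higher and 7 lower (median -0.12) with scaling by totals. Cebpa stood at 9.74 ± 0.34 CPM labelled CIS-/- and 45.6 ± 1.9 CPM in WT at 24 h (-2.22 ± 0.07, adjusted p = 3.19e-36), and Cebpb at 2050.1 ± 229 CPM labelled CIS-/- and 788 ± 69 CPM in WT (1.38 ± 0.07, adjusted p = 3.17e-10). Of 10 genes of the other NOX and DUOX oxidases and their partners, 1 had enough counts to be tested, Noxo1, an organizer of NOX1. Its log2 fold change was -1.51 ± 0.47 labelled CIS-/- against WT at 24 h (adjusted p = 0.00329). Its mean was at most 0.806 CPM in either group, near the floor, so this value rests on few reads.

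Markers of other cells were summed in every group. At 24 h the 9 monocyte or macrophage markers summed to 1011 to 1051 CPM labelled CIS-/- and 540.4 to 561 CPM in WT, of which Adgre1, which encodes F4/80, made up 777 ± 18 CPM labelled CIS-/- and 344 ± 12 CPM in WT. Of the same list, Ly6c2 stood at 77.5 ± 6.4 CPM labelled CIS-/- and 45.4 ± 0.7 CPM in WT, Csf1r at 169 ± 4.9 CPM labelled CIS-/- and 163 ± 1.3 CPM in WT, and F13a1 at 3.12 ± 0.26 CPM labelled CIS-/- and 0.276 ± 0.061 CPM in WT. Ccr2, Cx3cr1, Ms4a6c and Irf8 were below 1 CPM in both of those groups. Eosinophil markers (5 genes) summed to 40.1 to 41.8 CPM labelled CIS-/- and 33.7 to 36.2 CPM in WT unstimulated. They summed to 37.2 to 40.2 CPM labelled CIS-/- and 16.4 to 22.5 CPM in WT at 4 h, and to 51.9 to 56.4 CPM labelled CIS-/- and 57.1 to 65.0 CPM in WT at 24 h. Most of the 4 h gap was Ccr3, at 20.9 ± 2.5 CPM labelled CIS-/- and 1.98 ± 0.66 CPM in WT. In the same order Siglecf stood at 9.30 and 7.02 CPM, Prg2 at 7.05 and 8.02 CPM and Epx at 1.63 and 2.49 CPM, with Il5ra below 1 CPM. The 4 erythroid markers summed to 9.09 to 10.3 CPM labelled CIS-/- and 3.12 to 4.37 CPM in WT unstimulated, to 4.93 to 8.41 CPM labelled CIS-/- and 2.17 to 2.58 CPM in WT at 4 h, and to 2.02 to 2.80 CPM labelled CIS-/- and 0.419 to 0.591 CPM in WT at 24 h, where 2 of the 4 were at 0 in WT. The 4 markers of early neutrophil stages summed to 9.09 to 10.5 CPM labelled CIS-/- and 16.1 to 19.7 CPM in WT unstimulated, to 2.87 to 3.51 CPM labelled CIS-/- and 5.98 to 9.40 CPM in WT at 4 h, and to 1.86 to 7.26 CPM labelled CIS-/- and 10.2 to 16.0 CPM in WT at 24 h. Neither sum overlapped between genotypes at any time, and both were small beside those of the neutrophil markers. The 6 B cell and 6 T cell markers summed to at most 2.84 and 8.43 CPM in any library, and basophil or mast cell, NK cell and dendritic cell markers to at most 1.75, 0.698 and 0.736 CPM. The 12 neutrophil markers summed to between 123879 and 127985 CPM unstimulated and between 34317 and 38870.3 CPM at 24 h labelled CIS-/-. In WT they summed to between 129682 and 131024 CPM unstimulated and between 33897 and 35274 CPM at 24 h. Single markers went both ways at 24 h. Csf3r stood at 2326 CPM labelled CIS-/- and 5900 CPM in WT, against 4219 CPM in unstimulated WT. Cxcr2 stood at 867 CPM labelled CIS-/- and 1835 CPM in WT, and S100a9 at 13645 CPM labelled CIS-/- and 9660 CPM in WT. Retnlg, Mmp8 and Mmp9 were also lower on average labelled CIS-/-, and S100a8, Ly6g, Camp, Ngp, Ltf and Lcn2 higher. The part of these shifts in the oxidase results was not tested.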

How the data were processed

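Read counts per Ensembl gene were made by the authors with Trimmomatic, STAR and featureCounts on mm10, per the submitters' processing notes; their versions, the annotation release and the strand setting are not stated in the material used here, and the library kit was directional, per the labels. The deposited counts were whole numbers, with 12170524 to 22539858 per library, and 105 gene IDs without a name in GENCODE M21 held 0.0238% of them. The members and gene lists were chosen with earlier results of these data known.

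All 18 libraries were fitted in 1 model of 6 groups with edgeR 4.0.16 in R 4.3.3: filterByExpr, TMM factors, robust quasi-likelihood with 12 residual degrees of freedom, two-sided glmQLFTest, 12 comparisons, and Benjamini-Hochberg adjustment over 11569 genes. The common biological coefficient of variation was 3.3%. Every adjusted p is from this test, except where an alternative, a left-out library or a sum with an overlapping gene is named. Those come from the fit so named. RPKM use the merged exon length of each gene in GENCODE M21.

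Named were the 7 members, Cish, the 3 genes most like each member in pattern, and from each list up to 3 called genes whose absolute fold change was largest in WT at 24 h against unstimulated or between genotypes at 24 h, given 10 CPM or more in a compared group, as room allowed. Noxo1, below that level, was named as the only tested gene of its list. One result that this rule would add is not reported here. Same-numbered replicates did not deviate together (0 of 45 correlations above 0.1), so no pairing was used.

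Alternatives were RLE factors, library sizes without TMM (scaling by totals), DESeq2 1.42.0, limma-voom 3.58.1, no filter, a filter of 50 counts in 3 libraries, the compared groups only, a replicate block, a non-robust prior and each library left out. Sums with overlapping genes, and totals for the summed RPKM, were added after seeing the data. The fit was tested on simulated counts with the same base levels in every group and a small set of genes changed in a single group. That test did not cover the shift in composition at 24 h.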

Additional observations from a re-analysis of the deposited data

Results flagged for a closer look

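The change with culture differed between genotypes for 6 of the 7 genes, as tested by genotype-by-time terms (libraries labelled CIS-/- minus WT, log2 scale, edgeR's quasi-likelihood test, 3 libraries a group). Of all genes tested, 15.7% were called in the 4 h term, 64.7% in the 24 h term and 66% in the term from 4 h to 24 h, so a high share of calls is no result about these 7. At 4 h against unstimulated the terms were -0.35 for Cybb, 0.22 for Ncf1 (adjusted p = 1.77e-05) and -0.24 for Hvcn1 (adjusted p = 0.00525). At 24 h against unstimulated they were -0.71 for Cybb, 0.76 for Cyba, -0.36 for Ncf1 (adjusted p = 7.61e-12), 0.46 for Ncf4 (adjusted p = 2.08e-12), -0.72 for Rac2 (adjusted p = 7.11e-19) and 1.96 for Hvcn1 (adjusted p = 3.9e-36).

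From 4 h to 24 h the terms were -0.35 for Cybb, 0.73 for Cyba (adjusted p = 1.38e-14), -0.59 for Ncf1 (adjusted p = 6.23e-20), 0.46 for Ncf4 (adjusted p = 6e-12), -0.68 for Rac2 and 2.20 for Hvcn1. Ncf1 thus had a positive term at 4 h and a negative one afterwards, and Hvcn1 the reverse. Scaling by library totals made both late terms of Ncf4 negative, -0.03 and -0.06. Without replicate 1 labelled CIS-/- at 24 h, the late terms of Cyba were 0.68 and 0.66 and those of Rac2 -0.78 and -0.74. Rac1 did not pass the test in any of these terms.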

How the results depend on the processing

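Cybb, Cyba, Rac2, Ncf4, Ncf1 and Hvcn1 kept their 24 h genotype calls under RLE factors, DESeq2, limma-voom, both filters, the compared groups only and the replicate block, which changed no call of the 84 gene results. A fit of the compared groups only called 4 genes between genotypes in unstimulated cells in place of 2. DESeq2 called 7 between genotypes at 24 h in place of 6, with Rac1 also higher. Scaling by library totals turned 16 results. These were Cyba at 4 h against unstimulated (-0.042 labelled CIS-/-, -0.10 in WT), and in WT at 24 h Cyba, Ncf1 and Rac1 against unstimulated (0.053, 0.24, 0.18) and against 4 h (0.15, 0.48, 0.0019). Between genotypes they were Rac2 at 4 h (-0.0042) and Ncf4 and Rac1 at 24 h (-0.010, -0.49), and among genotype-by-time terms Ncf4 at 4 h (0.027), 24 h (-0.032) and from 4 h to 24 h (-0.060), with Rac1 at 24 h (-0.43) and from 4 h to 24 h (-0.42). Of values near 0, Ncf1 in WT from 4 h to 24 h turned to 0.00079 with RLE factors, 0.00081 with DESeq2, 0.019 without a filter and 0.048 with the compared groups only. The 4 h term of Ncf4 turned to 0.0043 with RLE factors and DESeq2, 0.013 without a filter, 0.0036 with the strict filter and 0.018 with the compared groups only. With Daglb added, Rac1 turned to -0.049 between genotypes at 24 h and to -0.023 in the 24 h term. Over the fits that left out 1 library each, Ncf1 in WT from 4 h to 24 h ran from -0.022 to 0.0094, Rac2 between genotypes at 4 h from -0.017 to 0.044, and the 4 h terms of Ncf4 and Rac2 from -0.017 to 0.015 and from -0.060 to 0.00071. Of the 630 such values, 12 turned, 9 lost and 7 gained a call. The 4 h to 24 h term of Rac1 (0.10, adjusted p = 0.0607 in edgeR) passed with RLE factors (0.0393), DESeq2 (0.0244), limma-voom (0.044) and the strict filter (0.0276). Culture without GM-CSF was not sampled, and overlaps limit Hvcn1 and Rac1. The causes of these changes were not tested.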
